A study of Mus musculus with 3 samples.

Results

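Protein phosphatase 4 (PP4) is a serine/threonine phosphatase of the PP2A-like family, and its subunit genes are described here across 3 microarrays of a mouse T-lymphoma line. All probe sets whose only gene symbol was Ppp4c, Ppp4r1, Ppp4r2, Ppp4r3a or Ppp4r3b were taken, which gave 11 of the 45101 probe sets, for 5 of 18194 named genes. A probe set is a group of short probes that together give 1 signal for a transcript. They were chosen by the low signal of Ppp4r1 relative to parental cells, seen earlier on these same arrays, so its ratios over parental cells are given as a description, with nothing drawn from them.

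The cells were WR19L, a T-lymphoma line of BALB/c origin, grown without treatment. One array held a line made from DKO cells, which lack flippase activity and come from WR19L, by stable expression of human ATP11A with the mutation Q84E. Another held the matching DKO line with wild-type human ATP11A, and the remaining one held parental WR19L. ATP11A is a P4-ATPase that transports phospholipids from the outer side of the plasma membrane to its inner side. Untransfected DKO cells, part of the series design, were not analysed here, and knockout, transgene and line history cannot be told apart in any ratio over parental cells. The labels do not say whether each line was a single clone. With 1 array per group there was no replicate error and no test, and the number of arrays limits the precision of every value. The error between cultures is therefore unknown, and both ratios over parental cells share the same parental array.

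In the cell, PP4 is assembled from the catalytic subunit Ppp4c and regulatory subunits that choose its targets. Ppp4r2 joins Ppp4c together with Ppp4r3a or Ppp4r3b, and the human complexes of this kind act on phosphorylated histone H2AX and other proteins of the DNA damage response. Ppp4r1 forms a separate complex with Ppp4c, and in human T cells that complex has been placed on the IKK kinase complex as a brake on NF-kappa-B signalling. In mice, Ppp4c is needed in the T cell lineage for normal thymocyte development.

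Signals are MAS5 values on a linear scale, and array means had been made equal by the authors. A signal under the 50th percentile of its own array, which was 55.5 for Q84E, 50.5 for wild-type ATP11A and 50.3 for parental cells, was set to that floor before a ratio was taken. The 75th percentile was 392, 373 and 369 on the same arrays. Of 8 measured T cell markers, 7 were above the 75th percentile on every array, while Cd3e, a defining one, was under the floor on all 3, at 8.88, 13.5 and 6.21 in Q84E, wild-type ATP11A and parental cells. None of the 16 measured B cell, myeloid and fibroblast markers reached the 75th percentile on any array. The brighter probe set of Atp11a, an endogenous flippase gene, gave 244 in Q84E, 253 in wild-type ATP11A and 478 in parental cells. The dimmer gave 31.7 in Q84E and 16.3 in wild-type ATP11A cells, both under the floor, against 131 in parental cells. These mouse probe sets need not detect an edit or a human transgene. The disagreement between 2 probe sets of the same gene served as measurement error. As an SD of the log2 ratio of 1 probe set it was 0.33 to 0.35 for probe sets in the 50th to 75th percentile, 0.18 to 0.19 in the 75th to 90th, and 0.10 to 0.12 above that.

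Ppp4r1 is the subunit whose low ratios led to the choice of these genes, and its values are given first. Its single probe set, 1424294_at, had a signal of 15.3 in Q84E cells and 44.5 in wild-type ATP11A cells, against 421 in parental cells. Both DKO lines lay under their floors, and the parental signal was above the 75th percentile of its array. Ppp4r1 was thus at least 7.57-fold lower in Q84E cells than in parental cells, a log2 ratio of at most -2.92. In wild-type ATP11A cells it was at least 8.32-fold lower than in parental cells, at most -3.06 on the log2 scale. The smaller bound for Q84E reflects the higher floor of that array. Between the 2 DKO lines no ratio is given, because both signals were under the floor. There is no second probe set of Ppp4r1 to set beside this one.

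**Figure D1:**
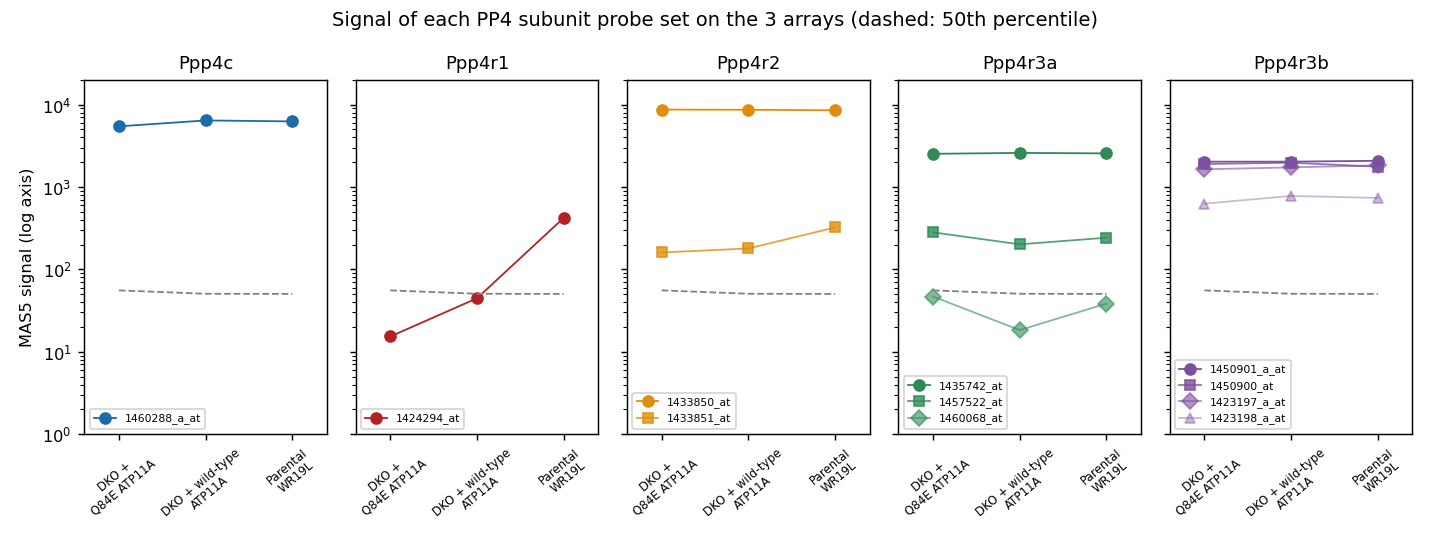
MAS5 signal on a log axis of every PP4 subunit probe set on the arrays of DKO cells with Q84E ATP11A, DKO cells with wild-type ATP11A and parental WR19L; each point is 1 array and lines join 1 probe set. Ppp4r1 is at 421 in parental cells and under the dashed 50th percentile in both DKO lines, while the brightest probe sets of the other 4 subunits stay within 1.18-fold.

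Among 10362 named probe sets at or above the 75th percentile in parental cells, 3 were below the floor on both DKO arrays. They belonged to Ppp4r1 and, with 2 probe sets, to Lrrc8e, which encodes a chloride channel subunit and is named here after its values were seen. In the other direction, 1 of 10017 probe sets bright in both DKO lines was under the floor in parental cells, that of Ankrd33b. Among the 11596 genes compared, each by its brightest probe set, 53 were at least 2-fold lower in both DKO lines. These counts describe the ratios by which the subunits were chosen.

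Ppp4c, the catalytic subunit that every PP4 complex contains, was among the brightest signals. Its single probe set, 1460288_a_at, gave 5436 in Q84E cells, 6412 in wild-type ATP11A cells and 6242 in parental cells. The Q84E array was the low one. The log2 ratio was -0.24 for Q84E over wild-type ATP11A, -0.20 for Q84E over parental and 0.039 for wild-type ATP11A over parental. A 1.18-fold difference, as between Q84E and wild-type ATP11A, was reached or passed by 21.1% of the 9818 named probe sets that were above the 75th percentile on all 3 arrays. No DKO line had a Ppp4c signal near the floor.

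Ppp4r2, the regulatory subunit that links Ppp4c to the Ppp4r3 subunits, had 2 probe sets that disagreed. The bright one, 1433850_at, gave 8686 in Q84E, 8637 in wild-type ATP11A and 8514 in parental cells, so its arrays lay within 1.02-fold of each other. The dim one, 1433851_at, gave 160.2 in Q84E and 179 in wild-type ATP11A cells, against 322 in parental cells. Both DKO lines were low by that probe set, at log2 ratios of -1.01 for Q84E over parental and -0.85 for wild-type ATP11A over parental, with the measurement error of dim probe sets at 0.35. All 3 signals of the dim probe set were above the floor and under the 75th percentile. Which part of the transcript each probe set reads is not given in the sources used here, and the reason for the disagreement was not tested.

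Ppp4r3a and Ppp4r3b encode subunits that take the same place in the complex and hold an EVH1 domain that recognises short motifs in substrates. The brightest Ppp4r3a probe set, 1435742_at, had signals of 2524 in Q84E, 2588 in wild-type ATP11A and 2555 in parental cells, a spread of 1.03-fold. A dimmer one, 1457522_at, gave 281, 201 and 242 on the same arrays, with Q84E the highest, at 0.48 over wild-type ATP11A on the log2 scale. The remaining one, 1460068_at, was under the floor on all 3 arrays, at 46.7, 18.3 and 38.3, and did not pass the filter on low signals.

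Ppp4r3b was read by 4 probe sets that all lay above the 75th percentile. Its brightest, 1450901_a_at, gave 2025 in Q84E, 2026 in wild-type ATP11A and 2076 in parental cells. The next, 1450900_at, gave 1897, 1967 and 1761, and 1423197_a_at gave 1638, 1727 and 1827, in the same order of arrays. The 3 brightest Ppp4r3b probe sets put Q84E at most 1.05-fold below wild-type ATP11A cells. The dimmest, 1423198_a_at, had 626 in Q84E, 778 in wild-type ATP11A and 735 in parental cells, a log2 ratio of -0.31 for Q84E over wild-type ATP11A. A difference of that size was reached by 11.6% of the bright probe sets. With quantile normalization the brightest probe set turned to 0.014 in that ratio, so no common direction of Ppp4r3b is given.

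Over the subunits as a group, 10 of the 11 probe sets passed the filter, which asked for a signal at the 50th percentile on at least 1 array. Ppp4r1 passed it through the parental array alone, so the low levels in the DKO lines are built into the selection. For Q84E over wild-type ATP11A, 0 of the 10 were at least 2-fold apart, where 1.43% of all 21345 named probe sets past the filter were. Ppp4r1 is among the 10 but had no ratio there, with both signals under the floor, so it could not be counted as apart. The share of all named probe sets treats such cases in the same way. For wild-type ATP11A over parental, 1 of 10 was at least 2-fold lower, that of Ppp4r1, beside 0.914% of all named probe sets, and 0 were 2-fold higher, beside 0.609%. For Q84E over parental, 2 of 10 were at least 2-fold lower, those of Ppp4r1 and the dim Ppp4r2 probe set, beside 0.796% of all, and 0 were 2-fold higher, beside 1.67%. In either direction 1.52% and 2.46% of all named probe sets passed 2-fold in these ratios. At 1.5-fold the subunits had 0 of 10 apart for Q84E over wild-type ATP11A, 2 for wild-type ATP11A over parental and 2 for Q84E over parental, beside 8.53%, 7.73% and 11.4% of all. The subunits were chosen with the Ppp4r1 ratios known, so nothing is read from these counts. The 7 probe sets above the 75th percentile on all 3 arrays had log2 ratios between -0.31 and 0.0081 for Q84E over wild-type ATP11A, from -0.081 to 0.16 for wild-type ATP11A over parental and from -0.23 to 0.11 for Q84E over parental. The interquartile range of all 9818 bright probe sets was -0.12 to 0.12, -0.096 to 0.10 and -0.14 to 0.15 in these ratios.

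**Figure D2:**
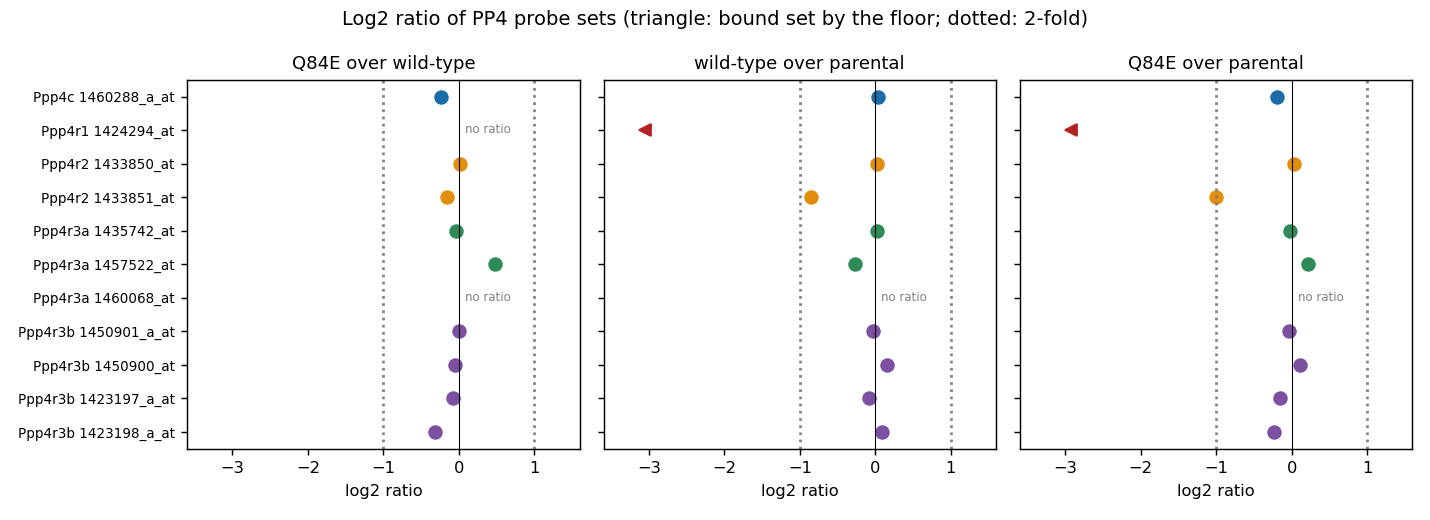
Log2 ratio of each PP4 subunit probe set in the comparisons of Q84E with wild-type ATP11A, wild-type ATP11A with parental and Q84E with parental cells; triangles are bounds, dotted lines mark 2-fold, and "no ratio" means both signals were under the floor. Ppp4r1 is at -3.06 and -2.92 as bounds, the dim Ppp4r2 probe set is at -0.85 and -1.01, and the other probe sets lie between -0.31 and 0.48.

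A common median lowered the ratios of Q84E together, while quantile normalization moved some up and others down. With quantile normalization the ratio of Q84E over wild-type ATP11A became -0.21 for Ppp4c and -0.30 for the dim Ppp4r2 probe set, against -0.24 and -0.16 as deposited. When each array was set to a common median, the median log2 ratio of all named probe sets for Q84E over wild-type ATP11A became -0.090, against 0.047 as deposited, and for Q84E over parental -0.081, against 0.062. The split of all named probe sets past 2-fold for Q84E over wild-type ATP11A was 239 higher and 66 lower as deposited, but 146 and 118 with quantile normalization and 140 and 119 with a common median. For Q84E over parental it was 356 higher and 170 lower as deposited, 209 and 235 with quantile normalization, and 196 and 249 with a common median. Ppp4c kept a negative ratio of Q84E over wild-type ATP11A under both, at -0.21 and -0.38.

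The genes around Ppp4r1 were examined to see whether the low signal extended along the chromosome. Ppp4r1 lies on mouse chromosome 17, Ppp4c on 7, Ppp4r2 on 6, Ppp4r3a on 12 and Ppp4r3b on 11 in RefSeq annotation of GRCm38.p6. The 6 nearest compared genes on each side of Ppp4r1 were, in order, Fbxl17, Fer, Pja2, Man2a1, Vapa and Rab31 before it and Twsg1, Ankrd12, Ndufv2, Washc1, Ddx11 and Mtcl1 after it. Rab31 and Mtcl1 had parental signals of 62.0 and 58.3, so near the floors that they could have shown at most a 1.23-fold and a 1.15-fold decrease, and they say nothing of a 2-fold one. The other 10 could have shown a 2-fold decrease in both DKO lines. None of the 10 was 2-fold apart in any comparison, where 1.35% of all genes were for Q84E over wild-type ATP11A, 1.45% for wild-type ATP11A over parental and 2.42% for Q84E over parental. At those shares, 0 of 10 does not set these genes apart. Their log2 ratios ranged from -0.31 to 0.27 for Q84E over parental and from -0.49 to 0.17 for wild-type ATP11A over parental, with medians of -0.016 and 0.0061. The adjacent Rab31, a small GTPase of membrane traffic, had 48.8 in Q84E and 41.1 in wild-type ATP11A cells, against 62.0 in parental cells. Both DKO signals were under the floor. The floored log2 ratios were -0.16 for Q84E over parental and -0.30 for wild-type ATP11A over parental. Both are smaller than the error of dim probe sets, 0.35 in these ratios, so neither direction nor size is given. Twsg1, which encodes a secreted regulator of BMP signalling on the other side, had 569 in Q84E, 613 in wild-type ATP11A and 545 in parental cells. Whether the low signal extends to Rab31 cannot be told from these arrays.

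**Figure D3:**
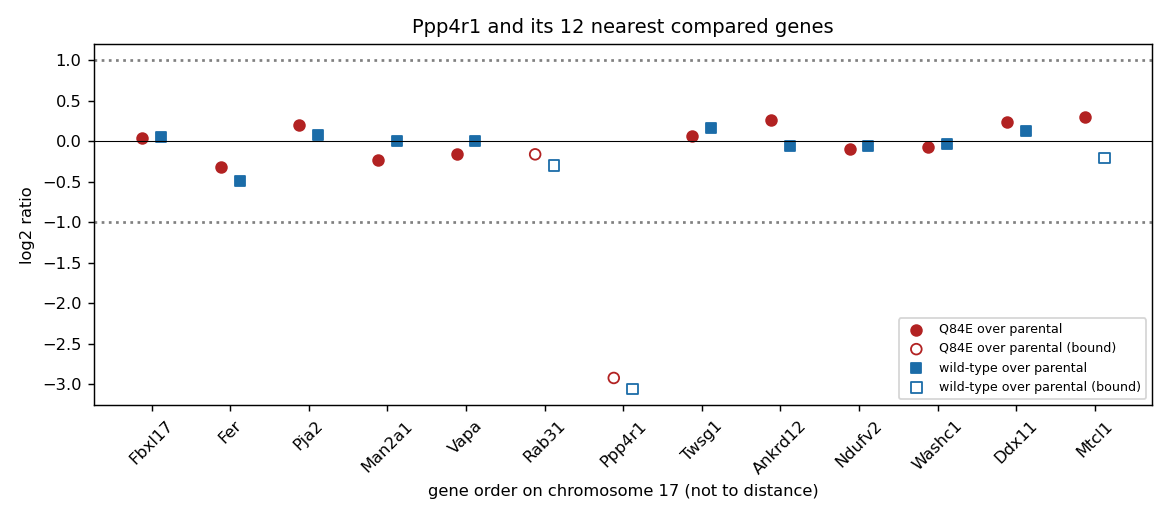
Log2 ratio of Ppp4r1 and its 12 nearest compared genes in chromosomal order, for Q84E over parental (circles) and wild-type ATP11A over parental (squares) cells; open symbols are bounds and dotted lines mark 2-fold. Ppp4r1 is at -2.92 and -3.06, and its neighbours lie between -0.49 and 0.30; Rab31 and Mtcl1 are too near the floors to reach the lower dotted line.

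Among the 60 neighbours of all 5 genes, 2 were 2-fold apart from parental cells, both higher, while 10 of the 60 were too near the floors to show a 2-fold decrease in both DKO lines. The 2 are named here after their values were seen. Ypel3, next to Ppp4c, had 238 in Q84E and 162 in wild-type ATP11A cells against 106 in parental cells, a 2.24-fold difference for Q84E over parental. Frmd4b, a scaffold protein gene near Ppp4r2, had 229 in Q84E and 223 in wild-type ATP11A cells, against a parental signal of 31.5 under the floor, at least 4.54-fold and 4.42-fold higher. By brightest probe set, 1.63% of all genes were at least 2-fold higher for Q84E over parental and 0.561% for wild-type ATP11A over parental.

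Genes with a pattern most like that of Ppp4r1 were found by the Euclidean distance between their pairs of log2 ratios, wild-type ATP11A over parental and Q84E over parental, over 3 arrays. Since Ppp4r1 enters with bounds, the distances describe the floored values. The nearest was Itln1, which encodes the lectin intelectin-1, at a distance of 0.15, with signals of 105.1 in Q84E and 106 in wild-type ATP11A cells against 793 in parental cells. Itln1 stayed above the floor in both DKO lines, unlike Ppp4r1. Lrrc8e followed at 0.68, with 16.3 in Q84E and 10.6 in wild-type ATP11A cells against 587 in parental cells, and both of its probe sets were low. Crispld2, which encodes a secreted protein, was at 0.92, with 439 and 346 in the Q84E and wild-type ATP11A lines against 1981 in parental cells, and 2 of its 3 probe sets were 2-fold lower in both. Usp18, the protease that removes ISG15 from proteins, was at 1.0, Nat2, an arylamine N-acetyltransferase, at 1.08, and Dzip1, a gene of cilium formation, at 1.16. Of the 5 Dzip1 probe sets, 1 was 2-fold lower in both DKO lines. These genes lie on chromosomes 1, 8, 6 and 14, none on chromosome 17. Lrrc8e, Crispld2 and Nat2 are on chromosome 8, but the share of all compared genes there was not counted, so nothing is read from that.

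A list of 9 genes outside the 5 subunits held partners of PP4, further subunit genes and the pseudogene Ppp4r1l-ps. Of these 9, 6 were compared, with Ppp4r1l-ps among them, and 0 were 2-fold apart in any comparison. Over all genes, 1.35% were past 2-fold for Q84E over wild-type ATP11A, 1.45% for wild-type ATP11A over parental and 2.42% for Q84E over parental. A count of 0 among 6 is near those shares. Igbp1 encodes alpha4, which binds and stabilises free catalytic subunits of this family. Its brightest probe set gave 4522 in Q84E, 4761 in wild-type ATP11A and 5019 in parental cells. Tiprl, which binds catalytic subunits of the PP2A-like family, gave 2362, 2469 and 2573 on the same arrays. Lcmt1, the methyltransferase that modifies the tail of the catalytic subunits, gave 1068 in Q84E, 1237 in wild-type ATP11A and 1261 in parental cells, a log2 ratio of -0.24 for Q84E over parental. Ppme1, the esterase that reverses this methylation, gave 875, 873 and 861, and Ptpa, an activator of PP2A, gave 3281, 3201 and 3130. By their brightest probe sets, none of these 5 genes differed by more than 1.18-fold between any 2 arrays. Dim probe sets strayed further, as for Igbp1 with 97.9 in Q84E and 75.03 in wild-type ATP11A cells against 38.4, under the floor, in parental cells, and for Ptpa with 54.1, under the floor, in Q84E and 79.5 in wild-type ATP11A cells against 93.5 in parental cells.

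Ppp4r1l-ps is a transcribed pseudogene related to Ppp4r1 by name, on chromosome 2. Its brightest probe set gave 163 in Q84E, 132 in wild-type ATP11A and 149 in parental cells, and the next gave 147, 127 and 133. These stayed above the floor in both DKO lines. Of the other 6 probe sets, 4 were under the floor on all arrays, 1 was above it in Q84E cells alone, and 1 had 41.5 in Q84E and 39.5 in wild-type ATP11A cells, both under the floor, against 73.0 in parental cells. The separate regulatory subunit gene Ppp4r4 was under the floor on all 3 arrays, at 25.1, 31.7 and 15.7, and was not compared.

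PP2A and PP6 are the closest relatives of PP4, and 0 of 24 compared genes for their subunits passed 2-fold in any comparison. With 1.35%, 1.45% and 2.42% of all genes past it in the same comparisons, that count does not set the list apart. The medians were -0.0071 for Q84E over wild-type ATP11A, 0.041 for wild-type ATP11A over parental and 0.0050 for Q84E over parental. Medians of all genes were 0.046, 0.0057 and 0.068, and the 0.0057 is also the log2 difference between the wild-type ATP11A and parental floors. Ppp2ca, a catalytic subunit of PP2A, had 12400.4 in Q84E, 12404 in wild-type ATP11A and 13163 in parental cells. Ppp6c, that of PP6, had 2191, 2355 and 2347 on the same arrays. Ppp2r1b, a scaffold subunit of PP2A, had the largest difference among the bright members, at 3294 in Q84E cells against 4394 in wild-type ATP11A and 4227 in parental cells. Its log2 ratio was -0.42 for Q84E over wild-type ATP11A. Ppp2r3c, a regulatory subunit, was at -0.41 in that ratio, Ankrd44, a regulatory subunit of PP6, at 0.29, and Strn4, a striatin that recruits PP2A, at -0.32 for wild-type ATP11A over parental. Its second probe set put Ppp2r3c at -0.13.

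DNA damage and chromatin genes whose products have been described as PP4 substrates or partners held 1 gene of 11 past 2-fold, for Q84E over parental, where 2.42% of all genes were. For Q84E over wild-type ATP11A and wild-type ATP11A over parental the count was 0 of 11, beside 1.35% and 1.45%. H2ax, the histone variant that is phosphorylated at DNA breaks, had 3396 in Q84E and 1964 in wild-type ATP11A cells, against 1447 in parental cells. The Q84E array was the high one, at 2.35-fold over parental and 1.73-fold over wild-type ATP11A, by the single probe set of the gene. Under the other scalings H2ax stayed between 1.09 and 1.25 in log2 ratio for Q84E over parental. These are transcript levels and say nothing of phosphorylation. Mdc1, which binds phosphorylated H2AX, had 1200.4 in Q84E, 955 in wild-type ATP11A and 940 in parental cells, log2 ratios of 0.33 over wild-type ATP11A and 0.35 over parental. Cenpc1, a centromere protein, was at 0.35 for Q84E over parental, and Rnf8, a ubiquitin ligase at DNA breaks, at -0.30 for wild-type ATP11A over parental. Trp53bp1, Rpa2 and Trim28, known targets of PP4, each lay within 1.07-fold on all arrays by their brightest probe sets. Across the 4 compared Trp53bp1 probe sets the log2 ratio of Q84E over wild-type ATP11A ranged from -0.022 to 0.31.

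**Figure D4:**
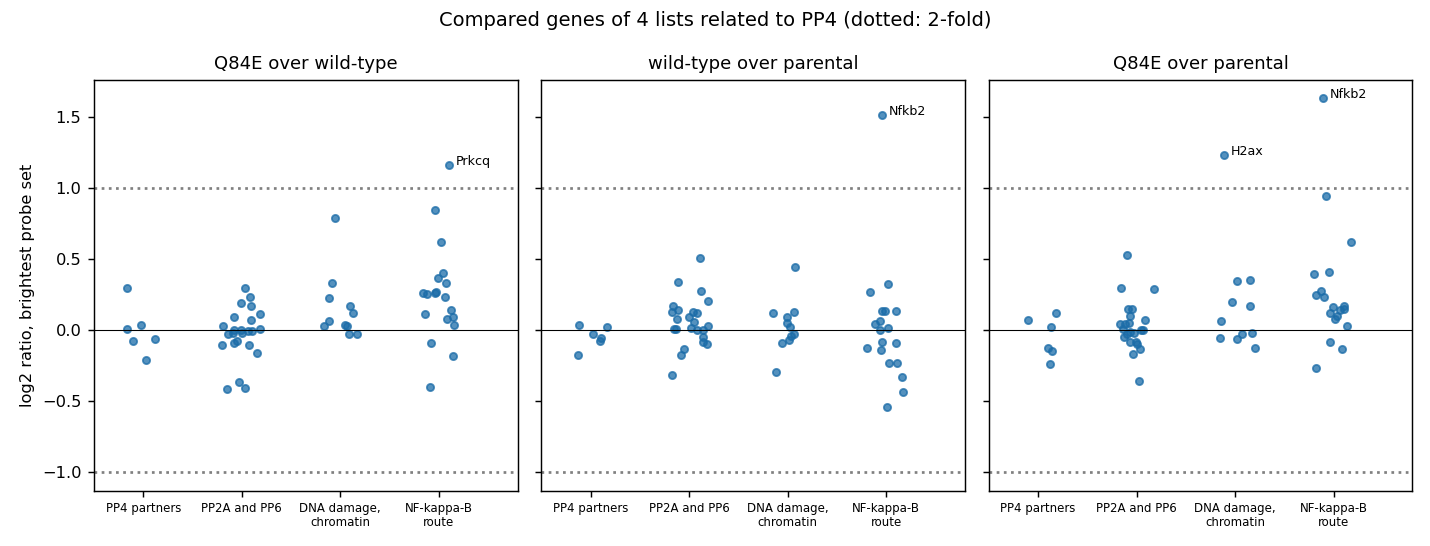
Log2 ratio of each compared gene, by its brightest probe set, in 4 lists. PP4 partners with the pseudogene Ppp4r1l-ps make 6 genes, and PP2A and PP6 subunits make 24. DNA damage and chromatin genes make 11, and the T cell receptor to NF-kappa-B route 19. Ratios between 2 floors are left out and genes past the dotted 2-fold lines are named. Prkcq is at 1.16, Nfkb2 at 1.52 and 1.63, and H2ax at 1.23.

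The route on which human PP4R1 has been placed runs from the T cell receptor through kinases and adaptors to NF-kappa-B, and 19 of 24 listed genes were compared. For wild-type ATP11A over parental, 10 were above 0 and 9 below, with a median of 0.00069 beside 0.0057 over all genes. That 0.0057 is also the log2 difference between the floors of these arrays. For Q84E over parental, 16 were above 0 and 3 below, with a median of 0.16 beside 0.068 over all genes. For Q84E over wild-type ATP11A, 16 were above 0 and 3 below, with a median of 0.25 beside 0.046. The medians over all genes were themselves above 0. The share of all genes above 0 was not counted, so nothing is read from these counts. With quantile normalization, 14 of 19 were above 0 in both ratios of Q84E. The list medians were 0.20 for Q84E over wild-type ATP11A and 0.14 for Q84E over parental. All named probe sets had medians of -0.0018 and 0 in these ratios. With each array at a common median, 12 of 19 were above 0 in both ratios of Q84E. The list medians were then 0.12 for Q84E over wild-type ATP11A and 0.022 for Q84E over parental. All named probe sets had medians of -0.090 and -0.081 under that scaling, so a count around 0 is not a count around their centre. The medians under other scalings are over probe sets, not over genes by their brightest probe set as for the list. In each comparison 1 of the 19 was at least 2-fold apart, each time higher, beside 1.35% of all genes for Q84E over wild-type ATP11A, 1.45% for wild-type ATP11A over parental and 2.42% for Q84E over parental.

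T cell markers and the list both lay mostly above 0 in the ratio of the 2 DKO lines. They did not move together in the ratios over parental cells. The list medians there were 0.00069 for wild-type ATP11A over parental and 0.16 for Q84E over parental. For Q84E over wild-type ATP11A, 6 of the 7 compared markers were above 0 and 1 below. Their median log2 ratio was 0.36, beside 0.046 over all genes. Cd2, an adhesion receptor of T cells, had 1584 in Q84E and 821 in wild-type ATP11A cells against 1518 in parental cells, and Cd3d, a chain of the T cell receptor complex, had 6976 and 4272 against 6898. The wild-type ATP11A array was the low one for both. For wild-type ATP11A over parental the marker median was -0.42 beside 0.0057 over all genes, with 1 above 0 and 6 below. For Q84E over parental it was 0.016 beside 0.068, with 4 above and 3 below. As for the list, the share of all genes above 0 was not counted. The summed signal of the 8 measured markers was 35972.5 in Q84E and 31652.5 in wild-type ATP11A cells, against 36524 in parental cells. Their part in the ratios of the list was not tested.

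Ikbkb, which encodes a kinase subunit of the IKK complex, had 1528 in Q84E, 1299 in wild-type ATP11A and 1288 in parental cells. Ikbkg, which encodes NEMO, the regulatory subunit of that complex, had 439, 349 and 409, with wild-type ATP11A the low array and a 1.26-fold difference for Q84E over wild-type ATP11A. Across the 6 compared Ikbkg probe sets the log2 ratio of Q84E over wild-type ATP11A ranged from 0.084 to 0.77. Map4k1, which encodes the kinase HPK1, a reported partner of PP4, had 1853 in Q84E, 1545 in wild-type ATP11A and 1706 in parental cells. The feedback inhibitor Nfkbie was the furthest apart of the bright members, at 1795 in Q84E and 1165 in wild-type ATP11A cells against 933 in parental cells. Its log2 ratio was 0.94 for Q84E over parental, and 1.08 by its second probe set. Nfkbib, another inhibitor of the family, was at -0.40 for Q84E over wild-type ATP11A and at 0.26 by its other probe set. Cyld, a deubiquitinase that restrains the route, was at 0.40 in that ratio, and Traf2, an adaptor of TNF receptors, at 0.39 for Q84E over parental.

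The 2 members past 2-fold were dimmer and are named after their values were seen. Nfkb2, which encodes the NF-kappa-B precursor p100, had 270.0 in Q84E and 249.5 in wild-type ATP11A cells against 87.1 in parental cells, by a less specific probe set. The other Nfkb2 probe set had log2 ratios of -0.36 for Q84E over parental and 0.11 for wild-type ATP11A over parental, so the 2 probe sets disagree. Prkcq, the protein kinase C that signals from the T cell receptor to NF-kappa-B, had 348 in Q84E cells against 156 in wild-type ATP11A and 227 in parental cells, with wild-type ATP11A the low array. For Q84E over wild-type ATP11A, 1.03% of all genes were at least 2-fold higher, and for wild-type ATP11A over parental, where Nfkb2 passed, 0.561% were.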

How the data were processed

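Each deposited value is a linear intensity, 1 signal per probe set and array, which the authors obtained with MAS5, per the submitters' processing notes. No MAS5 version or scanner is given in the sources used here. The input was 250 ng of RNA per array, per the labels' protocols. The mean after trimming 2% at each end was 500.0 on every array, and that scaling was kept. Of 45101 probe sets, 34958 had exactly 1 gene symbol in the platform annotation, of which 34754 matched RefSeq genes of GRCm38.p6. That annotation was used for names and gene order only, as the files name no genome build. Signals were floored at the 50th percentile of their array and compared as differences of log2 values if they reached it on at least 1 array. Genes were represented by their brightest probe set. A difference of at least 2-fold was counted. The comparison step was tested on simulated data. The members and lists were chosen with earlier results of these data known. All subunit probe sets and PP4 partners were named, then up to 4 genes a list with the largest ratio at or above the 75th percentile, and the 6 genes most like Ppp4r1. Alternatives were 2 other scalings, other floors, a pseudocount of 32, other filters, probe sets and a 1.5-fold limit. Python 3.11.15, numpy 2.4.6 and pandas 2.3.3 were used.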

Additional observations from a re-analysis of the deposited data

How the results depend on the processing

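No paired analysis was possible because each group had 1 array. The spread used to judge a shift was the probe set error, and it leaves out differences between cultures. For Ppp4r1 between the DKO lines the value as reported is only the difference of the 2 floors, 0.14. The ratios of Ppp4r1 over parental cells stayed below 0 under every alternative run. These are the ratios by which the subunits were chosen, so nothing is drawn from that. For Ppp4r1 the size of the ratio was set by the floor. With a floor at the 25th percentile its log2 ratio was -4.78 for Q84E over parental and -1.54 for Q84E over wild-type ATP11A. With a floor at the 75th percentile it was -0.10 and, for wild-type ATP11A over parental, -0.17, since that floor nearly reaches the parental signal. With a pseudocount of 32 in place of a floor it was -2.56 for wild-type ATP11A over parental and -0.69 for Q84E over wild-type ATP11A. The number of subunit probe sets at least 2-fold apart for Q84E over parental was 2, and became 1 with the pseudocount or with a filter at the 75th percentile and 0 with the floor there. For wild-type ATP11A over parental it was 1, and became 0 with the floor at the 75th percentile and 2 at a limit of 1.5-fold. For Q84E over wild-type ATP11A it was 0, and became 1 with the floor at the 25th percentile. With a common median, Q84E over wild-type ATP11A and Q84E over parental became -0.38 and -0.34 for Ppp4c, -0.13 and -0.11 for Ppp4r2, -0.17 and -0.16 for Ppp4r3a, and -0.14 and -0.18 for Ppp4r3b. With the mean of all probe sets, Ppp4r2 became -0.49 for Q84E over parental and -0.41 for wild-type ATP11A over parental, through its dim probe set. Ppp4r3a became 0.22 for Q84E over wild-type ATP11A, 0.099 for Q84E over parental and -0.12 for wild-type ATP11A over parental, and Ppp4r3b became -0.11 for Q84E over wild-type ATP11A. Without less specific probe sets, Ppp4r3b became 0.11 for Q84E over parental and 0.16 for wild-type ATP11A over parental, and Ppp4c had no value. Of the remaining values, 103 ratios moved by less than that error and 21 counts of subunit probe sets kept their value. Another 7, for Ppp4r1 between the DKO lines, were again only differences of floors. Other floors and filters cannot alter the ratio of a probe set that is bright on all arrays, nor can a mean over a single probe set. Many of the 103 ratios therefore could not have moved, and nothing is read from their number. The causes of these shifts were not tested where no construction is named.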
